A study of Mus musculus with 9 samples.

Results

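Histones are the proteins that wrap DNA into nucleosomes, and their genes were followed here in mouse testis at postnatal day 10, with Lin28a knocked out or not. The members are the 71 rows of the authors' deposited table, of 29661 in all, whose first gene name begins as histone names do (Hist1h to Hist4h, H2af, H3f3 or H1f). By RefSeq accession these rows belong to 67 genes of 23515: 50 clustered genes, 10 replacement variants, 6 testis and germ line variants and 1 copy that resembles the replacement variant H3.3, Gm12657. The study holds 9 C57BL/6 testis samples of day 10. Of these, 3 RNA-seq libraries are labelled Lin28a knockout, 3 RNA-seq libraries are labelled wild type, and 3 LIN28A CLIP samples were not analysed here. The titles of the knockout libraries begin with cKO, and the labels name neither a Cre driver nor whether libraries came from separate animals, so the authors' p-values may rest on technical spread.

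The table gives 1 pooled FPKM value (fragment counts scaled by transcript length and library size) for each group, in columns labelled case and control, so no spread between libraries stands beside any value below. Below, case and control mean these columns, and where 2 FPKM values stand together the case value comes first. Case was read as knockout from its name alone. Lin28a itself stood at 23.4 FPKM in case and 8.82 in control (q = 0.00191, authors' deposited table), which goes against that reading. Every direction below therefore rests on the column names.

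Clustered histone genes lie in arrays, lack introns as a rule and are expressed while DNA is copied; most of their mRNAs end in a stem-loop in place of a poly(A) tail. Replacement variants are, as a rule, expressed throughout the cell cycle from single genes with ordinary polyadenylated mRNAs. Male germ cells add variants of their own during meiosis and afterwards, and spermatids finally exchange most histones for protamines. The labels state total RNA and a standard Illumina library protocol, without saying whether poly(A) RNA was selected, so the levels of stem-loop mRNAs and of polyadenylated mRNAs may not have been sampled alike.

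Sequences upstream of 5 members are shown because the results turn on their genes: the testis H2A and H2B pair, a pair of ordinary clustered genes, the somatic and the testis linker histone, and the most abundant member. Each is the RefSeq sequence of GRCm38.p6 from 240 to 61 bases before the annotated start, read 5′ to 3′ toward the gene. Capitals mark matches on either strand to the CCAAT box, the TATAAA box, the octamer ATGCAAAT, the cAMP response element TGACGTCA and the H1 box, which reads AAACACA. No motif lies within another, and a match is not shown to be a bound site.
Hist1h2ba, chr13:23934217-23934396, minus strand: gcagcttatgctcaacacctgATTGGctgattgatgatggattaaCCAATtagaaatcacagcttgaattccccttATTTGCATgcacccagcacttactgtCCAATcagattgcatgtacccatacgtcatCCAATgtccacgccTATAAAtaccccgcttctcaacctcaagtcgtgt
Hist1h2bj, chr13:22042958-22043137, plus strand: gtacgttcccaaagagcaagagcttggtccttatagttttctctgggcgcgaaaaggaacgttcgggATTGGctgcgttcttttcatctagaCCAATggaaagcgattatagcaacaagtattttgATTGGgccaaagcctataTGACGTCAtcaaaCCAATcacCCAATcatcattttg
Hist1h1c, chr13:23738567-23738746, plus strand: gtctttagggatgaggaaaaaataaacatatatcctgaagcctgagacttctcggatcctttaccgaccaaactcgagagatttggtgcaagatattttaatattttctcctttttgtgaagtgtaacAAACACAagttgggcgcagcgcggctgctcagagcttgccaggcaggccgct
Hist1h1t, chr13:23695571-23695750, plus strand: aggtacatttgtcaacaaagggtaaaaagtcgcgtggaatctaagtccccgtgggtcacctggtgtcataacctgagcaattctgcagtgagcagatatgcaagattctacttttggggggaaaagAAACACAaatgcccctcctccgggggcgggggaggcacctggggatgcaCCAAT
H3f3b, chr11:116024565-116024744, minus strand: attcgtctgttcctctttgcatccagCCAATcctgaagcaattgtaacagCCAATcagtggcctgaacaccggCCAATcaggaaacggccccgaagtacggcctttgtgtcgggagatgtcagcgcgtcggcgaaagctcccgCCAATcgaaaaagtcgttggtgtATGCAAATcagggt

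The first stretch lies between the starts of the testis genes Hist1h2ba and Hist1h2aa, which point away from each other. It holds CCAAT in both orientations, an octamer (as ATTTGCAT) and TATAAA. The Hist1h2bj stretch, which it shares with Hist1h2ag, holds CCAAT matches and a TGACGTCA but no octamer in these letters. Hist1h1c, a linker histone of dividing and resting somatic cells, and Hist1h1t, the linker histone of spermatocytes, both hold the H1 box. H3f3b, a replacement gene, holds several CCAAT matches and an octamer.

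Promoter entries (250 bases before to 50 after the start) existed for 62 of the 67 genes, all but H2afx, Hist2h2be, Hist1h2bc, Hist1h3a and Hist1h3f. CCAAT was in 46 of 46 clustered promoters, against 37.9% of 27025 promoters of all genes; that of Hist1h1c lies outside the stretch shown. TATAAA was in 25 of the 46 (54.3%, against 14.2% of all). ATGCAAAT was in 5 of 14 clustered H2B and 6 of 17 clustered H2A promoters, 35.7% and 35.3%, in 0 of 10 of H3 and 0 of 5 of H1, against 1.75% of all. Entries of head-to-head H2A and H2B genes overlap, so the same match can count for both partners. Hist1h2ah and its partner Hist1h2bk, for example, both held ATGCAAAT. AAACACA was in 4 of 5 clustered H1 promoters, against 7.14% of all. Of the 9 replacement promoters, 6 held CCAAT and 1 held TATAAA. Histone H4 promoters, whose rows carry another first name and are no members, held CCAAT in 3 of 12 and TATAAA in 8 of 12.

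No histone row passed a q-value of 0.05 in the authors' deposited table. The count was 0 of the 42 member rows with a test, where 0.0514% of all 13629 tested rows passed. At an unadjusted p under 0.05 there was 1 row, Hist1h2ak, with p = 0.0493 in the authors' deposited table, against 1.28% of tested rows. Of the other member rows, 25 carried the status NOTEST and 4, all of H2afy, the status FAIL. The histone values below are thus levels and differences that no test separated after adjustment, and at these levels a difference may have gone undetected. A mean of at least 1 FPKM was reached by 31 of the 67 genes (19 clustered, 10 replacement, 1 testis, and Gm12657), and 8 of the 31 differed by 1.5-fold or more, where 2.72% of 12699 genes at that level did.

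**Figure D1:**
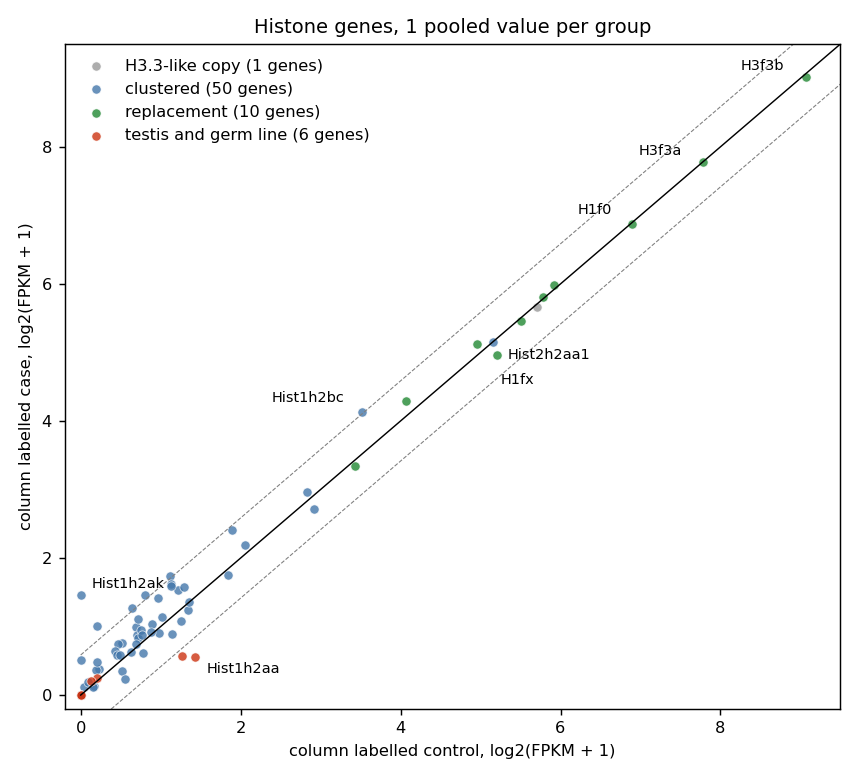
Levels of the 67 histone genes as log2(FPKM + 1), control on the x axis and case on the y axis, with 1 point per gene coloured by class; the solid line marks equal values and the dashed lines a 1.5-fold difference of FPKM + 1. Replacement genes lie on or near the line, clustered genes of low level scatter mostly above it, and Hist1h2aa lies below it.

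The replacement variants made up most histone mRNA measured and were nearly level between the columns. Their summed FPKM was 1106 in case and 1123 in control, or 87.1% and 88.3% of the FPKM of all members. All 10 had a mean FPKM of at least 5, and 0 of them differed by 1.5-fold. Of all genes at that level, 0.381% were higher and 0.604% lower by that much, so 0 of 10 is near the share. At 1 FPKM or more the shares were 1.3% and 1.43%. On the log2(FPKM + 1) scale, case minus control, the replacement variants had a median difference of -0.01 and a range from -0.24 to 0.22. The median over all genes at 1 FPKM or more was 0.03.

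H3.3, the H3 variant that is laid down outside DNA replication by the chaperones HIRA and DAXX-ATRX, is encoded with the same amino acids by H3f3a and H3f3b. H3f3b (mm10 chromosome 11, 116021961 to 116024504) stood at 519 FPKM in case and 536 in control, and ranked 35 among all genes by mean FPKM. H3f3a (chromosome 1, 180802568 to 180813603) was at 218 and 219.8 FPKM. The authors' deposited table gives p = 0.888 for H3f3b and p = 0.958 for H3f3a. Together both genes held 98.2% and 98.4% of the FPKM of H3 genes, in case and control, counting clustered H3 but not Gm12657.

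Gm12657 (chromosome 4, 94565139 to 94603247) was at 49.5 and 51.2 FPKM. The table gives it the name H3F3A and a span it shares with Plaa, a neighbouring gene. Reads of near-identical H3.3 copies can be assigned to any of them, so its level is uncertain.

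The linker histones bind DNA between nucleosomes. H1f0, the linker of differentiated and resting cells, had 117 FPKM in case and 118 in control. H1fx, a divergent linker histone, was at 30.2 and 35.9 FPKM, 1.19-fold lower in case, and the authors' deposited table gives p = 0.421. Its log2(FPKM + 1) difference of -0.24 was the lowest of the replacement variants.

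Among the H2A variants, H2A.Z marks promoters and is made from 2 genes. H2afv, the first of these in level, was at 62.2 and 59.4 FPKM, and H2afz at 43.2 and 44.3 FPKM. H2afx, whose product is phosphorylated at DNA breaks and over the sex chromosomes of spermatocytes, had 34.0 and 30.0 FPKM; the authors' deposited table gives p = 0.546. It stood above H1fx in case and below it in control. H2afj, a mammalian H2A variant, was the lowest replacement gene, at 9.19 and 9.78 FPKM.

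MacroH2A carries a large extra domain and is abundant on silent chromatin such as the inactive X chromosome. H2afy, summed over 4 rows, was at 54.9 and 54.2 FPKM, with its top row at 31.7 and 30.6 FPKM and the next at 18.1 and 18.2 FPKM; all 4 rows carry the status FAIL. H2afy2 had 18.6 and 15.8 FPKM, and the authors' deposited table gives p = 0.452. Its difference of 0.22 was the highest of the replacement variants. H2afy had a difference of 0.02, which turned to -0.02 after the columns were rescaled to a median ratio of 1.

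The 50 clustered genes stood far lower and together were somewhat higher in case. Their summed FPKM was 113 in case and 93.9 in control, 1.20-fold higher, or 8.88% and 7.39% of the FPKM of all members. Without Hist1h2bc, the clustered gene with the largest difference in FPKM, the sums were 96.3 and 83.5, 1.15-fold. Of the 50, 35 had a higher value in case, 14 a lower one and 1, Hist2h2ab, was listed at 0 in both. By any amount, 60.8% of all genes with a mean of at least 1 FPKM were higher in case, and 55.3% of those at 0.2 to 1 FPKM. A mean under 1 FPKM was found in 31 of the 50.

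**Figure D2:**
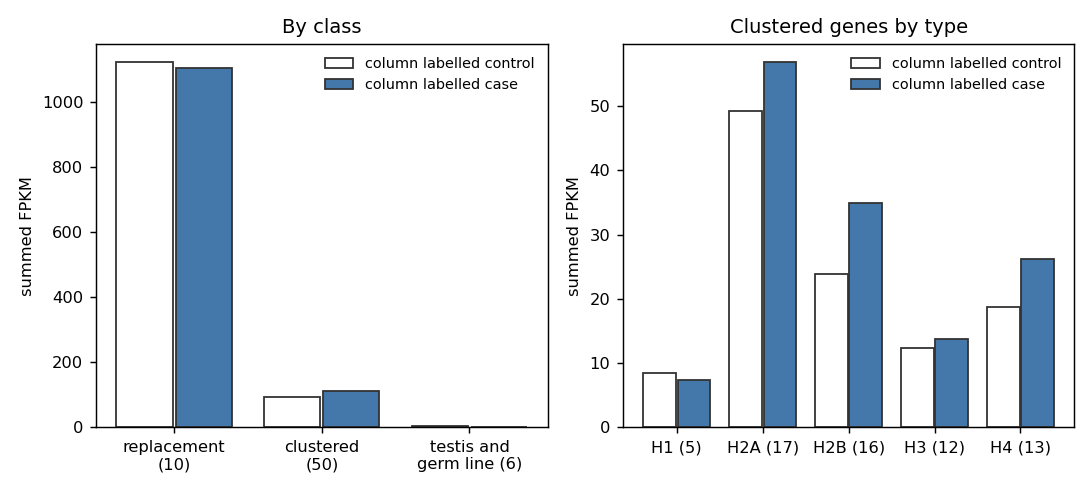
Summed FPKM in control (white bars) and case (blue bars), by histone class at left and for clustered genes by histone type at right, with the number of genes in parentheses; the 13 H4 genes are outside the naming rule. Replacement genes hold most of the total, and H2B shows the widest gap between the bars among the member types.

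By type, the sums of H2A, H2B and H3 were higher in case and that of H1 lower. The 16 clustered H2B genes summed to 34.8 and 23.9 FPKM, 1.46-fold higher in case, and 11 of them were higher. Without Hist1h2bc the H2B sums were 18.4 and 13.4 FPKM, 1.37-fold. The 17 H2A genes summed to 56.8 and 49.3 FPKM, with 15 higher, or to 22.4 and 14.5 FPKM without Hist2h2aa1. The 12 H3 genes summed to 13.7 and 12.4 FPKM, with 7 higher, and the 5 H1 genes to 7.42 and 8.41 FPKM, with 2 higher. Without Hist1h3a the H3 sums were 11.7 and 11.2 FPKM, 1.05-fold. Without Hist1h1c the H1 sums were 1.85 and 1.87 FPKM. The 13 H4 genes outside the rule summed to 26.2 and 18.7 FPKM, with 9 higher and 4 lower. The widest gap among these was that of Hist1h4a, at 6.96 and 1.62 FPKM, for which the authors' deposited table gives p = 0.111. By array, the 39 genes of the Hist1 array on chromosome 13 summed to 56.6 and 41.1 FPKM, 1.38-fold higher in case, and the 9 of the Hist2 array on chromosome 3 to 48.4 and 45.8 FPKM. The 5 linker genes went from Hist1h1c, described next, down to Hist1h1e at 0.0913 and 0.123 FPKM and Hist1h1d at 0.0900 and 0.0303 FPKM. These sums and counts were not tested, and the shares over all genes given above stand beside the counts by direction.

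A few genes carried most of the clustered signal. Hist2h2aa1, Hist1h2bc, Hist3h2a, Hist1h1c and Hist2h2aa2 held 59.9% of clustered FPKM in case and 64.5% in control. Hist2h2aa1, an H2A gene on chromosome 3 (96245457 to 96246115), was at 34.4 and 34.8 FPKM. Its twin Hist2h2aa2 is deposited with the same span and was at 4.30 and 2.73 FPKM, so reads of the pair may be split between them. Hist1h2bc, an H2B gene (chromosome 13, 23684199 to 23692480), was at 16.4 and 10.5 FPKM, 1.57-fold higher in case; the authors' deposited table gives p = 0.163, and 0.381% of 9441 genes at 5 FPKM or more were higher by 1.5-fold and 0.604% lower. Hist3h2a, the H2A gene of the smallest array, was at 6.81 and 6.08 FPKM. Hist1h1c had 5.56 and 6.55 FPKM, for which the authors' deposited table gives p = 0.601. Hist2h2aa1 and Hist1h1c, unlike the sum of the clustered genes, had their lower value in case, Hist2h2aa1 by a slight margin.

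Levels differed with the deposited spans. Among clustered H2A, H2B and H3 genes, 19 had a span of 381 to 411 bases, the length of the coding sequence alone. Their median was 0.769 FPKM, and 0 of these reached a mean of 2 FPKM. The other 26 had longer spans, with a median of 1.05 FPKM, and 6 reached 2 FPKM. A span is not always the length of a gene's own transcript, since Hist1h2be is deposited with 38889 bases that it shares with Hist1h1e. FPKM divides by transcript length, so a transcript model without untranslated regions changes the scale of its gene. The part of length in these levels, and whether it was alike in both columns, was not tested.

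**Figure D3:**
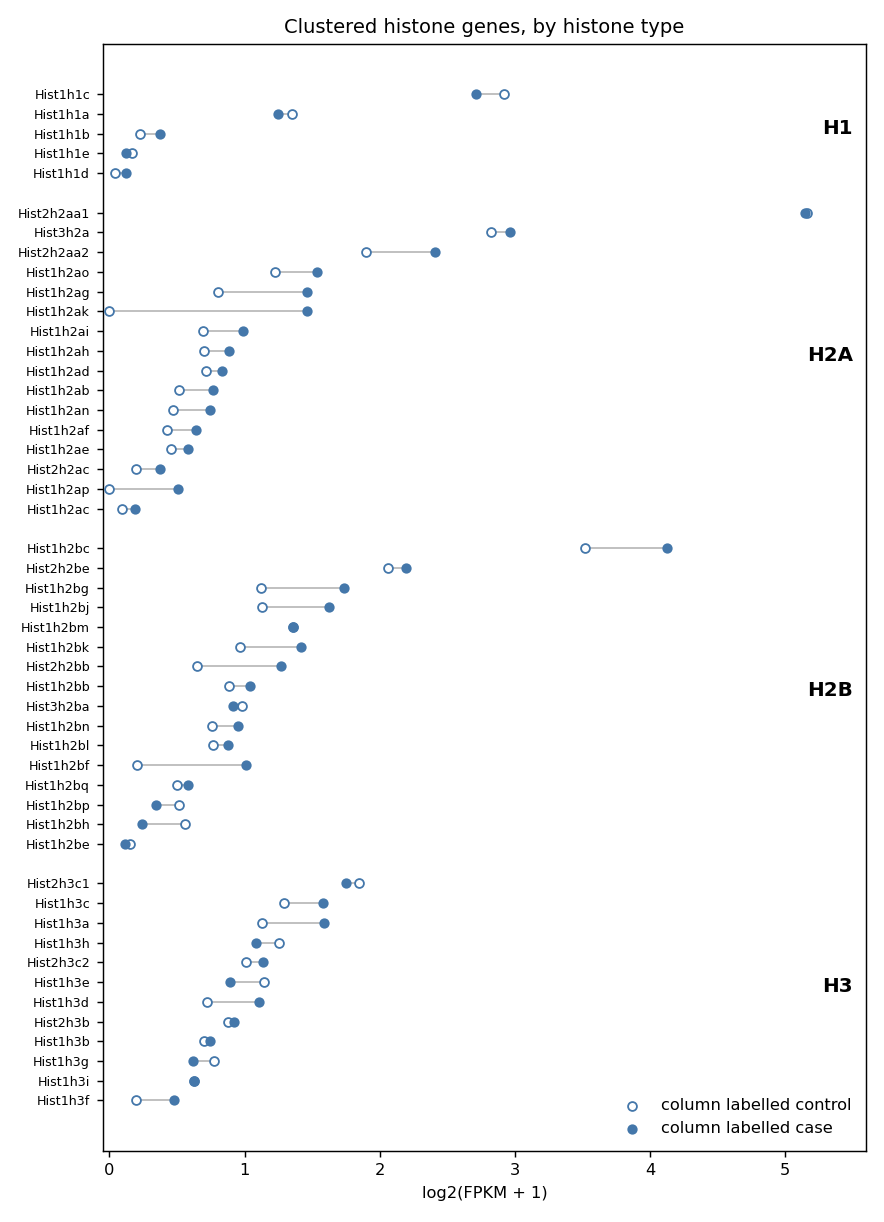
Level of each of the 49 clustered histone genes with a value above 0, as log2(FPKM + 1) on the x axis, in control (open circles) and case (filled circles), grouped by histone type and ordered by mean level. Filled circles lie to the right for 15 of the 16 H2A genes shown, while H1 and H3 genes lie on both sides.

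Of the 50 clustered genes, 19 had a mean of at least 1 FPKM. Among these, 12 were higher and 7 lower, or 63.2% higher where 60.8% of all genes at that level were, and the median difference was 0.14. By 1.5-fold, 7 of the 19 were higher and 0 lower. These were Hist1h2ag, Hist1h2bc, Hist1h2bg, Hist1h2bj, Hist1h2bk, Hist1h3a and Hist2h2aa2. Between 1 and 5 FPKM, 10 of 15 clustered genes were higher by any amount, where 61.9% of 3258 genes were, and 6 of the 15 were higher by 1.5-fold, where 3.96% were. Short genes outside the histones went both ways by that much. Of 9 with a single row spanning at most 700 bases in that range, 3 were higher and 2 lower, or 33.3% and 22.2%. Histone H4 genes in the range went both ways too, 4 of 11 higher and 3 of 11 lower. Of the 15 clustered genes, 0 were lower by 1.5-fold. These 15 were not held to the bound of 700 bases, and Hist2h2be spans 2618. Between 0.2 and 1 FPKM, 12 of 26 clustered genes were higher by 1.5-fold and 2 lower, against 16.1% and 13.3% of 2690 genes and 46.2% and 30.8% of 13 short ones. By any amount 21 of these 26 were higher, against 55.3% of the 2690. These counts of clustered genes by direction were the same after control was rescaled to a median ratio of 1, whereas the share over all genes at 1 FPKM or more moved from 60.8% to 6351 of 12699.

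Among clustered genes with a mean of at least 1 FPKM, the largest log2(FPKM + 1) difference was 0.66, in Hist1h2ag. Hist1h2ag had 1.75 and 0.744 FPKM, 2.36-fold higher in case, and the authors' deposited table gives p = 0.310. Hist1h2bg, an H2B gene of the same array, was at 2.33 and 1.18 FPKM. Hist1h2ak (chromosome 13, 21753435 to 21753827) had a mean below that, with 1.75 FPKM in case and a listed 0 for control, so no fold is given. On the other side, Hist1h3e was at 0.852 and 1.21 FPKM, Hist1h3h at 1.12 and 1.38 FPKM, and Hist1h1a, a linker histone prominent in spermatogonia, at 1.37 and 1.55 FPKM. Hist2h2be (3.59 and 3.17 FPKM), Hist2h3c1 (2.36 and 2.59 FPKM) and Hist1h3c (1.98 and 1.45 FPKM) completed the 10 clustered genes of highest level together with Hist1h2bj, given below. Each of these rows had p above 0.05 in the authors' deposited table, other than Hist1h2ak.

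Clustered H3 genes make H3.1 or H3.2, the forms laid down behind the replication fork, which differ in a single residue. The deposited names follow this split. The 4 H3.1 genes (Hist1h3a, Hist1h3g, Hist1h3h and Hist1h3i) share 1 first name, and summed to 4.21 FPKM in case and 3.83 in control. Only Hist1h3a among these 4 had its higher value in case, at 2.01 and 1.19 FPKM, and without it the sums were 2.20 and 2.64 FPKM, lower in case. The 8 H3.2 genes, under another first name, summed to 9.51 and 8.53 FPKM, with 6 of 8 higher in case. In all, 7 first names covered more than 1 gene, among them HIST1H2AH with 10 H2A genes, so single clustered genes were told apart by accession and position. Near-identical coding sequences leave their separate values uncertain.

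H2A and H2B genes of the large array on chromosome 13 often stand head to head and share the stretch between their starts. Among members with a promoter entry there were 9 such pairs, with 164 to 281 bases between the starts. In 7 pairs both genes were higher in case, in 1 both were lower, and in 1 they differed in direction. Beside these counts, 15 of 17 clustered H2A genes and 11 of 16 clustered H2B genes were higher in case, paired or not. Hist1h2ag and Hist1h2bj, whose shared stretch is printed above, had 1.75 and 0.744 FPKM for the H2A gene, and 2.08 and 1.19 FPKM for the H2B gene. Hist1h2ah and Hist1h2bk likewise had 0.841 and 0.628 FPKM, and 1.66 and 0.952 FPKM. In 4 further pairs, Hist1h2ad with Hist1h2bf, Hist1h2ae with Hist1h2bg, Hist1h2ai with Hist1h2bl and Hist1h2ao with Hist1h2bq, both genes were higher as well, the smallest log2(FPKM + 1) difference being 0.09 for Hist1h2bq and the largest 0.81 for Hist1h2bf. Hist1h2bf, the widest of these, had 1.02 and 0.154 FPKM, while its partner Hist1h2ad had 0.778 and 0.644 FPKM. Hist1h2ai had 0.986 and 0.616 FPKM and Hist1h2bl 0.834 and 0.704 FPKM. Hist1h2ao, with 1.89 and 1.33 FPKM, shares its deposited span with Hist1h2ap, and Hist1h2bq had 0.499 and 0.411 FPKM. By mean FPKM the H2B gene stood above the H2A gene in 3 of the 9 pairs. Some partners were close, as Hist1h2ai and Hist1h2bl with means of 0.801 and 0.769 FPKM. Near-identical sequences and unlike spans leave the order within pairs uncertain.

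Hist1h2ak, listed at 0 in control, stands opposite Hist1h2bn, at 0.933 and 0.688 FPKM. The pair that split was Hist1h2an, at 0.679 and 0.382 FPKM, and Hist1h2bp, at 0.272 and 0.429 FPKM. The pair lower on both sides was the testis pair Hist1h2aa and Hist1h2ba. Whether partners go together more than other clustered genes was not tested.

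**Figure D4:**
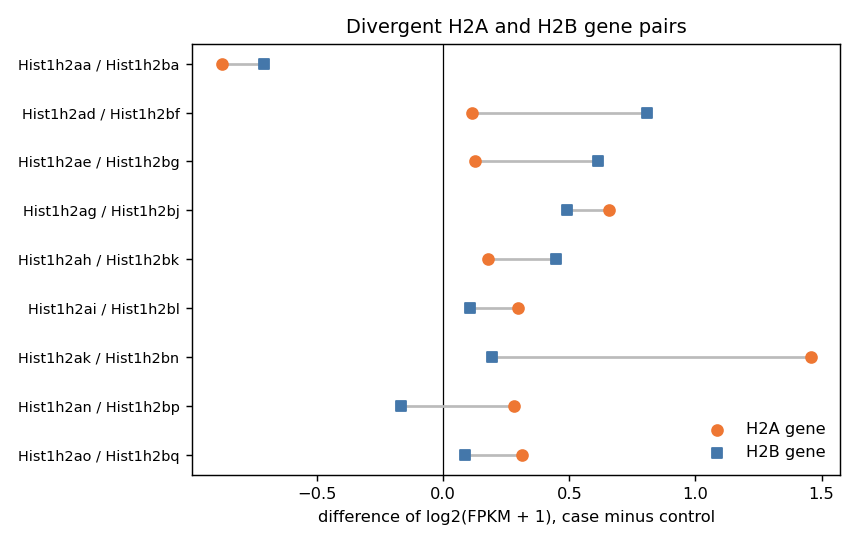
Difference of log2(FPKM + 1), case minus control, for the H2A gene (orange circle) and the H2B gene (blue square) of 9 divergent pairs. The testis pair Hist1h2aa and Hist1h2ba lies left of 0, at -0.88 and -0.71, and 7 pairs lie right of 0 with both genes.

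The testis variants that replace canonical histones in spermatocytes were low, with the lower value in case for both. Hist1h2ba encodes TH2B, the H2B that spreads through meiotic and later chromatin, and Hist1h2aa encodes its partner TH2A. Hist1h2aa (chromosome 13, 23934462 to 23934851) had 0.469 FPKM in case and 1.70 in control, 3.62-fold lower, and the authors' deposited table gives p = 0.388. Hist1h2ba (chromosome 13, 23933773 to 23934156) had 0.479 and 1.42 FPKM, 2.96-fold lower, for which the authors' deposited table gives p = 0.472. Neither passed the test. Hist1h2aa reached the mean of 1 FPKM through its control value alone, and of genes with a mean of 1 to 5 FPKM 3.81% were lower by 1.5-fold or more, or 22.2% of the 9 short ones. Hist1h2ba lay in the range of 0.2 to 1 FPKM, where 13.3% of genes and 30.8% of the 13 short ones were lower by that much.

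Beside these values stand 22 genes of meiotic prophase, a list chosen with earlier results of these data known. All 22 had their lower value in case, where 4981 of 12699 genes at 1 FPKM or more did. The median difference of the 22 was -0.48 beside 0.03 over all genes. Among the 20 of these with a test, 7 had an unadjusted p under 0.05 in the authors' deposited table, all lower. Of all tested rows 0.631% were lower at that p, and 0 of the 20 genes had a q under 0.05. The 3 smallest p belonged to Meiob (1.92 and 6.82 FPKM), Hormad1 (15.6 and 29.8 FPKM) and Sycp2 (15.3 and 24.9 FPKM), genes of recombination and of the chromosome axis. In whole testis, fewer cells of a type and less RNA per cell cannot be told apart, and the part of the meiotic cells in the Hist1h2aa and Hist1h2ba values was not tested.

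The later and the oocyte variants were at or near 0. Hist1h1t, the linker histone of pachytene spermatocytes, was at 0.154 and 0.0967 FPKM; its promoter holds the same H1 box as that of Hist1h1c. H1fnt, a linker histone of spermatids, was listed at 0 in both columns, as was H2afb1, a row whose accession RefSeq gives as H2al2a, an H2A of condensing spermatids. H1foo, the oocyte linker histone, was at 0.185 and 0.157 FPKM. The protamine genes Prm1, Prm2 and Prm3 were listed at 0 in both columns, and the transition protein gene Tnp1 had 1.30 and 1.82 FPKM.

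Of 6 histone variants whose names fall outside the rule, Cenpa and H2bfm reached a mean of 1 FPKM. Cenpa, the H3 of centromeres, had 38.1 and 37.3 FPKM, a level near that of H2afz. H2bfm, an X-linked H2B, had 2.23 and 3.54 FPKM, and its row in the authors' deposited table gives p = 0.274. H2al1m, an H2A of spermatids, was at 0.269 and 0.135 FPKM. Hils1, a linker histone of spermatids, was listed at 0 in case and at 0.0528 FPKM in control, and H2bl1 and H2al3 are listed at 0 in both columns.

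Genes that make, carry and process histones lay on both sides of equality. Of 17 genes of histone mRNA transcription and processing with a mean of at least 1 FPKM, 8 were higher and 9 lower, with a median difference of -0.01. Slbp, which binds the stem-loop of clustered histone mRNAs, was at 83.8 and 88.6 FPKM. Npat, the activator of clustered histone genes at S phase, was at 13.4 and 15.2 FPKM, Zfp473, a partner in cutting the mRNA end, at 0.825 and 1.10 FPKM, and Coil, coilin of the Cajal body, at 9.98 and 8.64 FPKM. Of 29 chaperone and exchange genes, 18 were higher and 11 lower (14 and 15 after rescaling), with a median of 0.03. Asf1b, which hands H3 and H4 to the replication fork, was at 35.6 and 44.6 FPKM, Nasp, a reservoir for H3 and H4, at 134 and 145 FPKM, and Atrx, the partner of DAXX, at 21.9 and 18.6 FPKM.

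DNA replication genes are expressed in the same phase as clustered histones. Of 28, 11 were higher and 17 lower (8 and 20 after rescaling), with a median of -0.01. Pcna, the clamp of the replication fork, was at 45.6 and 50.9 FPKM, Prim1, of the primase, at 24.7 and 30.2 FPKM, Cdc45, of the replicative helicase, at 33.9 and 38 FPKM, and Ccne1, a cyclin of S phase entry, at 5.55 and 6.61 FPKM. Across these 3 lists the authors' deposited table gives 0 genes a p under 0.05, against 0.646% of tested rows higher and 0.631% lower.

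Markers placed the samples as testis. All 13 germ cell genes, 10 Sertoli, 7 Leydig, 9 peritubular and stromal and 6 endothelial markers had a mean of at least 1 FPKM. Summed FPKM was 598 and 640 for germ cell genes and 2793 and 2995 for Sertoli genes. Of the 13 germ cell genes 5 were higher in case and 8 lower (3 and 10 after rescaling), with a median difference of -0.02. Of the 10 Sertoli genes 6 were higher in case, and without Clu, a highly expressed one, their sums were 766 and 744. Leydig markers summed to 332 and 255, peritubular and stromal markers to 1038 and 905, endothelial markers to 40.1 and 33.9, and the 6 macrophage markers analysed to 73.7 and 93.6. Leydig, peritubular and endothelial sums were thus higher in case, as the clustered histone sum was. Of the 12 pachytene and spermatid markers, 4 reached a mean of 1 FPKM and Prm1 and Prm2 are listed at 0. The part of these cells in the histone values was not tested.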

How the data were processed

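RNA of day 10 testis was sequenced, with 3 knockout and 3 wild type libraries. The submitters' processing notes name TopHat2 2.0.9 and mm10; which program computed expression is not given in the sources used. The authors' deposited FPKM, per the file headers, is 1 pooled value a group, with a test statistic (a score), a p-value and a q-value for each row. The deposited q-values equalled a Benjamini-Hochberg adjustment of the 13629 tested rows (largest gap 2.26e-06). Depth per library is unknown from pooled FPKM, so no interval is given.

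Genes were taken by accession from RefSeq (GRCm38.p6), which held all 71 member rows and 29072 of 29661 rows; older symbols are printed. Deposited starts were increased by 1. Rows of a gene were summed and log2(FPKM + 1) was subtracted, case minus control, which understates changes of low genes. Genes whose mean reached 1 FPKM were counted by direction and at 1.5-fold, with no test. The members, lists, the rule for named genes and the bound of 700 bases for short genes were chosen with earlier results of these data known. Named were all replacement and testis variants, the 10 clustered genes of highest level, and the 4 largest differences each way among clustered genes with a mean of at least 1 FPKM. Rows with p under 0.05, pair partners and the 3 smallest p-values of each list were named too, except that cell type markers are given as sums. Slbp, Pcna, Clu, Hist1h4a, H2al1m, Hils1, the lowest linker genes and the genes at 0 were named outside this rule. Leaving out libraries was not possible. Python 3.11.15 with pandas 2.3.3 was used.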

Additional observations from a re-analysis of the deposited data

How the results depend on the processing

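The clustered median of 0.14 ranged from 0.06 to 0.22 and the log2 ratio of the clustered sums, 0.20 at a mean of at least 1 FPKM, from 0.12 to 0.26 over the alternatives run; both stayed above 0, and the replacement median of -0.01 stayed between -0.05 and -0.01. The 8 members past 1.5-fold (7 higher, 1 lower) became 26 with no filter on low values (22 higher, 4 lower) and 1 at a mean of at least 5 FPKM (1 higher, 0 lower). They became 15 with H4 genes added (11 higher, 4 lower) and 5 with rows summed by first name (4 higher), both added after seeing the data, as were the sums without 1 gene. Fewer or more genes enter under each of these, and without the filter all 67 members do. Of all genes at 0.2 to 1 FPKM, 16.1% were higher by 1.5-fold and 13.3% lower. Of 13 short genes outside the histones in that range, 46.2% were higher and 30.8% lower. At 5 FPKM or more, 0.381% of all genes were higher and 0.604% lower, and at 1 FPKM or more 2.72% passed either way. The share over all genes with no filter was not computed. The testis and germ line median of -0.88 rests on Hist1h2aa alone; it was -1.66 with a pseudocount of 0.1 and 0 with no filter, where 6 genes enter, and had no value at 5 FPKM. The 0 called rows became 1 at an unadjusted p under 0.05. Of 107 values of 27 named genes, 96 moved by under 0.1, 10 moved further, all with a pseudocount of 0.1, and 1, H2afy, changed sign to -0.017 after rescaling by the median ratio of 1.03. No member name ends in -ps, so that alternative changed nothing. Leaving out each library could not be run. No paired analysis was possible because the table pools the libraries of a group.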
